A study of Homo sapiens with 30 samples.

Results

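The gene set described here is the secreted and membrane-bound axon guidance cues and their receptors: Eph receptors and ephrins, semaphorins of classes 3 to 7 with plexins and neuropilins, SLIT ligands with ROBO receptors, and netrins with DCC and the UNC5 receptors. Members were the protein-coding genes of the deposited count table whose symbols match these family names, and they numbered 69 of 33538 genes, of which 34 encode receptors and 35 encode ligands. The rule uses symbols alone, but the set was proposed with earlier results of these data known. The families held 9 EPHA and 5 EPHB receptors, 5 ephrin-A and 3 ephrin-B ligands, 7 class 3 and 13 class 4 to 7 semaphorins, 9 plexins, 2 neuropilins, 3 SLITs, 4 ROBOs, 4 netrins and 5 UNC5 or DCC receptors.

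These proteins steer growing axons by attraction or repulsion, and outside the nervous system they act on cell contact, migration and vessel growth. Ephrins are tethered to the cell surface and bind Eph receptor tyrosine kinases on a neighbouring cell. Semaphorins signal through plexins, the secreted class 3 members mostly with a neuropilin as the ligand-binding partner, SLITs bind ROBOs, and netrins attract through DCC or repel through UNC5 receptors.

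RNA was measured by poly(A) sequencing in A673, CHLA10 and TC32, established lines of Ewing sarcoma, a bone and soft tissue tumour, and every library carries the genotype label EWS::FLI1, the fusion transcription factor of that tumour. The treated groups received BMS-986158, an inhibitor of BET bromodomain proteins, at 5 nM, and the vehicle groups received DMSO. CHLA10, A673 and TC32 were treated for 72 h, labelled 3 days. CHLA10 and A673 were also kept in the drug without a break for 20 days and split as they filled the dish, and the labels call these cells persisters. This gives 10 groups of 3 libraries, 30 in all. The labels do not say how long the 20-day vehicle cells received DMSO. The labels do not call replicates separate cultures, so a p-value here reflects only how these libraries vary, and that variation may be technical. The medium of CHLA10 was another one, with more serum and an added supplement, so line and medium cannot be told apart, and each line is a single tumour's line.

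Total counts ran from 16.1 to 48.9 M (mega) per library. Levels are given as CPM, the share of a library's counts in genes tested, scaled to counts per mega-count with TMM library sizes. A change is the log2 difference of BMS-986158 minus vehicle in edgeR's quasi-likelihood fit. The standard error (SE) after ± was derived as the size of the change divided by the square root of the test's F statistic. A gene is called higher or lower at an adjusted p under 0.05 in edgeR's quasi-likelihood test with Benjamini-Hochberg adjustment over 16713 genes. All 8 Ewing sarcoma markers were detected, but NKX2-2 averaged 1.2 and 1.7 CPM in the CHLA10 vehicle groups, and 2 to 6 of the 8 were called lower in each treatment comparison. The summed level of 6 neuronal markers was higher in every treated library than in each vehicle library of its line and day (CHLA10 54.5 to 57.2 against 178 to 340 CPM at 20 days). Single markers did not all rise. In CHLA10 3 of the 6 were called higher at each time and 0 lower. In A673 at 3 days and in TC32 2 were called higher and 1 lower, and in A673 at 20 days 3 and 1. The summed fibroblast markers, mostly COL1A2, ran from 124 to 166 CPM under vehicle and from 509 to 1650 under BMS-986158 in A673 at 20 days. Of these 4 markers, 1 was called higher there and 1 lower. That sum was lower under treatment in TC32 (7.53 to 10.4 against 1.43 to 1.87 CPM). So it was in CHLA10 at 3 days (162 to 177 against 83.9 to 159) and 20 days (261 to 348 against 82.0 to 219). In A673 at 3 days the groups overlapped. Endothelial, blood, Schwann and epithelial marker sums reached at most 7.7, 2.06, 4.59 and 1.65 CPM, with CD3E at 0 in all 30 libraries. The part of these shifts in the results that follow was not tested. In bulk RNA, fewer cells of a type and less RNA per cell cannot be told apart. Replicate 3 stood apart from its group in the A673 20-day treated, A673 3-day vehicle, CHLA10 20-day treated and CHLA10 20-day vehicle groups, and results that rest on one of these libraries are given with and without it.

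Guidance genes were called in both directions in every comparison. The filter on low counts was passed by 65 members, while EPHA6, ROBO4, SEMA3E and PLXNA4 did not pass it. In CHLA10 at 3 days 27 of the 65 were called, 15 higher and 12 lower, where 29.8% of all genes tested were called (14% higher, 15.7% lower). In A673 at 3 days 30 were called, 11 higher and 19 lower, against 33.7% of all genes (15.3% and 18.4%). In TC32 at 3 days 27 were called, 13 higher and 14 lower, against 45.1% (22.3% and 22.8%). At 20 days 31 were called in CHLA10, 19 higher and 12 lower, against 33.7% (16.5% and 17.2%), and 33 in A673, 17 higher and 16 lower, against 39.7% (19.7% and 19.9%). The median change of the members lay near that of all genes tested, at -0.10 against -0.01 in CHLA10, -0.15 against -0.02 in A673 and -0.07 against -0.01 in TC32 at 3 days. At 20 days it was 0.03 against -0.02 in CHLA10 and 0.22 against 0.00 in A673. With members listed at 0 in 1 group set to their bound, the medians were -0.10, -0.15, -0.01, 0.03 and 0.20 in the same order. Of the 65, 56 were called in at least 1 comparison, and 78% of all genes tested were.

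**Figure D1:**
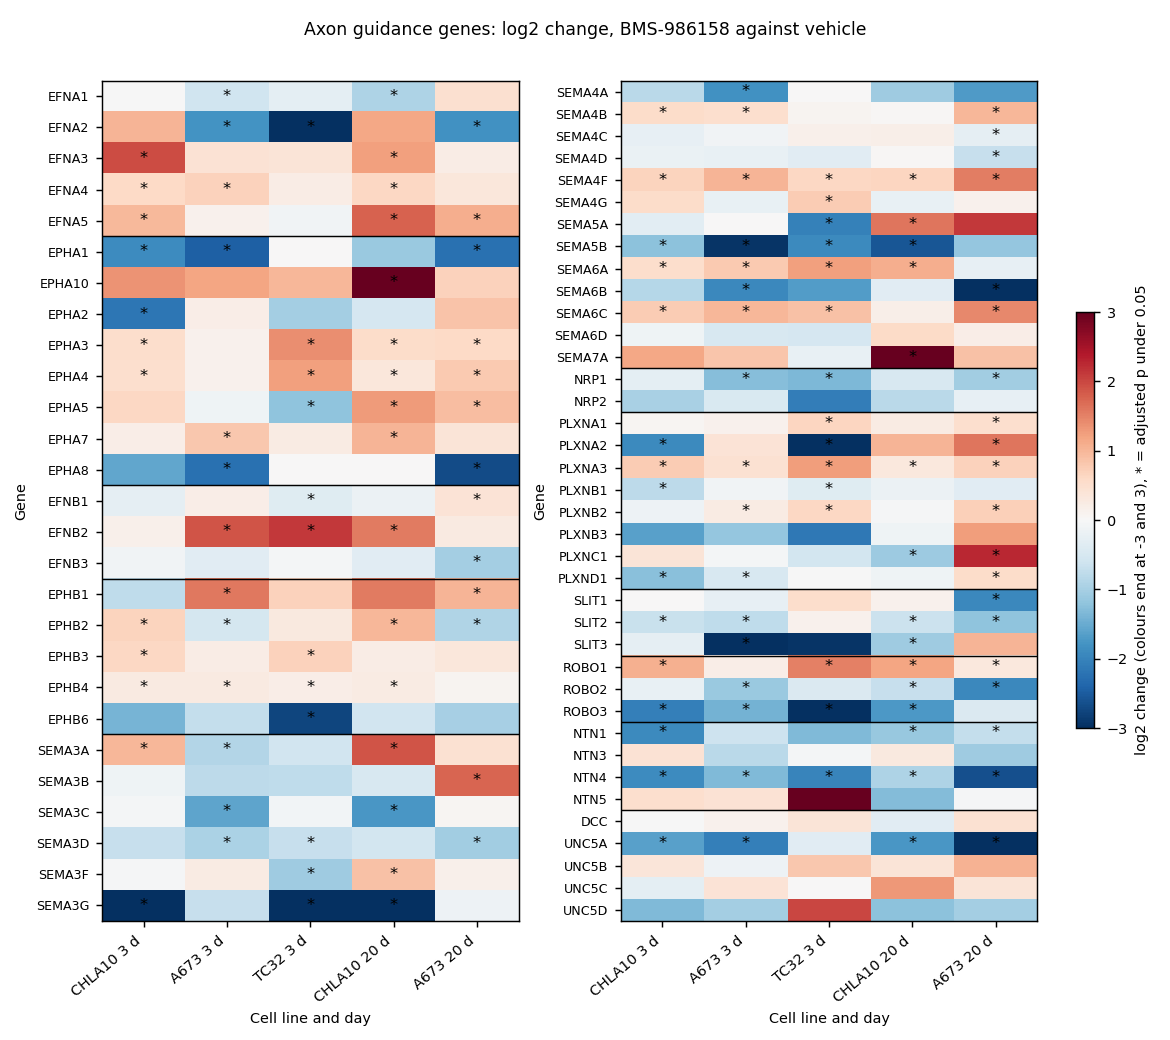
Log2 change of BMS-986158 minus vehicle for each member tested (vertical axis, by family) in the 5 treatment comparisons (horizontal axis), with asterisks on changes called at an adjusted p under 0.05 (edgeR) and colours that end at -3 and 3. The netrin, SLIT, neuropilin and UNC5 or DCC blocks hold no called higher value. The plexin block has 6 called higher and none called lower in A673 at 20 days, and calls in both directions in each other comparison.

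Among the netrins, SLITs, neuropilins and UNC5 or DCC receptors, 14 members tested, no call was higher in any of the 5 comparisons. These families were grouped after their calls were seen, so the lack of higher calls comes with that choice and tests nothing. The ROBO receptors, of which ROBO1 was called higher, are not among them. Lower calls among these 14 numbered 4 in CHLA10, 5 in A673 and 2 in TC32 at 3 days, and 5 in CHLA10 and 6 in A673 at 20 days. In the same order 14%, 15.3%, 22.3%, 16.5% and 19.7% of all genes tested were called higher, and 15.7%, 18.4%, 22.8%, 17.2% and 19.9% lower. The absence of higher calls depended on the fit for 4 of these genes. UNC5B, a netrin receptor, was called in no comparison, but with only the 6 libraries of a comparison its change was 0.79 in TC32 (edgeR adjusted p = 4.19e-05), 1.03 in A673 at 20 days (0.0015) and 0.36 in CHLA10 at 3 days (0.00126). It was also called higher in A673 at 20 days with the replicate block (1.06, edgeR adjusted p = 0.0381), and without the 4 most distant libraries there (1.04, 0.0065) and in TC32 (0.78, 0.0147). DCC reached a call at 0.44 in A673 at 20 days in the same kind of 6-library fit (edgeR adjusted p = 0.0293) and with the replicate block (0.0157), and without the 4 most distant libraries it stood at 0.32 there (0.0233) and at 0.37 in TC32 (0.00924). With the replicate block DCC was also called lower in another of the 5 comparisons. NTN3 stood at 0.43 in CHLA10 at 3 days with 6 libraries (edgeR adjusted p = 0.0189), and SLIT3 at 2.41 in A673 at 20 days without vehicle replicate 2 (0.0335). In CHLA10 at 20 days 5 of 8 EPHA and 2 of 5 EPHB receptors were called higher and none lower, against 16.5% and 17.2% of all genes. Of the 5 EPHA calls, that of EPHA3 was lost without treated replicate 3 (0.34, edgeR adjusted p = 0.169) and that of EPHA4 without vehicle replicate 3 (0.20, 0.222).

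Across the lines, 5 members were called higher and 3 lower in each of the 3 lines at 3 days. Among all genes tested, 4.77% were called higher and 5.12% lower in the 3 lines. The 5 higher were PLXNA3, SEMA4F, SEMA6A, SEMA6C and EPHB4, and the 3 lower were NTN4, SEMA5B and ROBO3. PLXNA3 and SEMA4F were higher, and NTN4 lower, in all 5 comparisons, where 2.81% of genes were called higher and 3.1% lower. SEMA5B, also lower in the 3 lines, had the promoter poorest in G or C of the shared members matched to one. RefSeq promoters (GRCh38.p14, 250 bases before to 50 after the start) are printed for PLXNA3, SEMA4F, NTN4 and SEMA5B. They are PLXNA3 at chrX:154458031-154458330 on the plus strand, SEMA4F at chr2:74653997-74654296 on the plus strand, NTN4 at chr12:95791106-95791405 on the minus strand and SEMA5B at chr3:123028556-123028855 on the minus strand, each 5′ to 3′ with CG dinucleotides in capitals.
PLXNA3: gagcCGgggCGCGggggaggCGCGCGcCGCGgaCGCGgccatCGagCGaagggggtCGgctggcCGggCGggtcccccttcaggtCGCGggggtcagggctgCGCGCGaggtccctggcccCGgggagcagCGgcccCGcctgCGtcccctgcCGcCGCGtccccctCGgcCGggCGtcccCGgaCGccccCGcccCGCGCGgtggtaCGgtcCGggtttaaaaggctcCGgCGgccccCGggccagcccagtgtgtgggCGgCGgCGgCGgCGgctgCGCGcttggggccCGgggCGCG
SEMA4F: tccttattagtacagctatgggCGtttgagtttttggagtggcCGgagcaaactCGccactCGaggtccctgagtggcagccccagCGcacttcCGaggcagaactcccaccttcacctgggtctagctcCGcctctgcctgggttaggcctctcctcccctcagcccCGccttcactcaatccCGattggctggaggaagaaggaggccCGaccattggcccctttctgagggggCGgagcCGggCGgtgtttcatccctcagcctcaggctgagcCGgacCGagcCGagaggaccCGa
NTN4: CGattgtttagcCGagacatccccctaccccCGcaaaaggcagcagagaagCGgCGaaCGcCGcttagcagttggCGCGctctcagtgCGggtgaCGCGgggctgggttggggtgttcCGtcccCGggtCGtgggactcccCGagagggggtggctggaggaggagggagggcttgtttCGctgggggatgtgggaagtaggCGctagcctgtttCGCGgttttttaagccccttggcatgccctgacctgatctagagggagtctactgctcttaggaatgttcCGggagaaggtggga
SEMA5B: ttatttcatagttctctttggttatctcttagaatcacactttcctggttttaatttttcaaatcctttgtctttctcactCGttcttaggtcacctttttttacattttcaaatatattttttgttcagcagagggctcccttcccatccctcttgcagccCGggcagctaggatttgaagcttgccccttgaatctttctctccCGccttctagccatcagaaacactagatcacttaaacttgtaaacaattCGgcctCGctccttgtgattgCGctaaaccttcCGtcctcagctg

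The PLXNA3 window is 83.3% G or C with 51 CG dinucleotides, and the SEMA5B window is 42.0% with 7. SEMA4F (63.0%, 17) and NTN4 (62.3%, 21) lie between them. So do the shared members not printed, ROBO3 (66.7%, 28), SEMA6C (71.7%, 28) and EPHB4 (74.3%, 36), and SEMA6A had no matched promoter. Of the 59 members matched to a promoter, the median was 66.7% G or C with 22 CG dinucleotides, against 58.7% and 14 over 35116 promoters of the same length. The sets are unlike: a member counts once, by the promoter nearest its start. The 35116 are all listed promoters, with some genes more than once and no limit to coding or tested genes. The windows of ROBO2, EPHB1 and PLXNA4 lie 404185, 197459 and 72218 bases from the GENCODE start. Of 3 motifs searched on both strands, the ETS-type repeat GGAAGGAA was in 4 member promoters (6.78%, EFNA4, PLXNB1, SLIT3 and UNC5A) and in 3.67% of all. The E-box CACGTG was in 4 (6.78%, EPHA8, SEMA3E, SEMA4D and SEMA6D) and in 7.26% of all, and TATAAA was in 1 (1.69%, EFNB2) and in 11.5% of all. None of these motifs overlaps another in its letters, and the 4 windows printed hold none of them.

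PLXNA3 encodes a plexin A receptor that works with neuropilins for class 3 semaphorins (ENSG00000130827, chrX:154458281-154477779, plus strand, GRCh38 with GENCODE 29). Its level in TC32 was 60.1, 72.2 and 66.2 CPM under vehicle and 140, 162 and 171 under BMS-986158. In CHLA10 at 3 days it was 179, 181 and 166 against 281, 310 and 295, and in A673 at 3 days 44.1, 44.2 and 44.8 against 56.9, 61.4 and 64.7. Treated and vehicle libraries did not overlap in any of the 5 comparisons. The changes were 1.25 ± 0.11 in TC32 (edgeR adjusted p = 1.06e-09), 0.75 ± 0.11 in CHLA10 (4.5e-06) and 0.46 ± 0.11 in A673 (0.00156). The TC32 rise exceeded that of A673 by 0.79 ± 0.15 (edgeR adjusted p = 0.000482). At 20 days it stood at 254, 239 and 245 CPM against 296, 295 and 328 in CHLA10 (0.31 ± 0.11, edgeR adjusted p = 0.0217) and at 35.5, 46.1 and 40.8 against 66.3, 54.1 and 77.9 in A673 (0.70 ± 0.11, 9.32e-06). The CHLA10 20-day call was lost without treated replicate 3 (0.26, edgeR adjusted p = 0.0949) or without vehicle replicate 2 (0.30, 0.0756).

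SEMA4F encodes a membrane-bound class 4 semaphorin (chr2:74654228-74683853, plus strand). In A673 at 20 days it stood at 12.9, 12.3 and 13.5 CPM under vehicle and 37.4, 34.0 and 40.2 under BMS-986158, its steepest rise (1.53 ± 0.18, edgeR adjusted p = 1.89e-07). At 3 days in A673 the values were 21.4, 20.4 and 11.4 against 33.8, 39.3 and 34.6 (1.02 ± 0.18, edgeR adjusted p = 7.92e-05). No treated library fell to a vehicle value in any comparison. The other 3 changes lay close together, at 0.66 in CHLA10 and 0.63 in TC32 at 3 days and 0.64 in CHLA10 at 20 days (SE 0.18 each, edgeR adjusted p = 0.00608, 0.00619 and 0.00598). Without treated replicate 3 the last one was 0.41 (edgeR adjusted p = 0.085).

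The class 6 semaphorins SEMA6A and SEMA6C encode transmembrane cues, and SEMA6A is a ligand of plexin A receptors. SEMA6C (chr1:151131685-151146664, minus strand) stood at 59.2, 60.8 and 62.5 CPM under vehicle and 108, 112 and 115 under BMS-986158 in TC32. The changes were 0.88 in TC32 (edgeR adjusted p = 4.36e-05), 0.75 in CHLA10 (0.000763) and 1.00 in A673 at 3 days (1.93e-05). At 20 days SEMA6C had risen in A673, from 19.2, 27.6 and 25.5 to 60.9, 65.0 and 71.0 CPM (1.45, edgeR adjusted p = 4.72e-08), while in CHLA10 the groups overlapped (39.5, 36.6 and 45.9 against 36.4, 36.5 and 65.1 CPM; 0.18, 0.414). SEMA6A (chr5:116443616-116574934, minus strand) showed the reverse at 20 days. It stood at 22.2, 21.1 and 20.7 CPM against 45.4, 42.4 and 49.7 in CHLA10 (1.10 ± 0.16, edgeR adjusted p = 5.19e-06) and at 15.9, 11.9 and 10.8 against 10.9, 8.26 and 13.3 in A673 (-0.25 ± 0.17, 0.255). Its 3-day changes were 0.53 ± 0.16 in CHLA10, 0.79 ± 0.16 in A673 and 1.23 ± 0.18 in TC32, and the CHLA10 call was lost without treated replicate 3 (0.44, edgeR adjusted p = 0.0651).

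EPHB4, a receptor for ephrin-B2, moved little but alike (chr7:100802565-100827521, minus strand). Its changes were 0.26 in CHLA10, 0.28 in A673 and 0.20 in TC32 at 3 days and 0.25 in CHLA10 at 20 days (SE 0.07; edgeR adjusted p = 0.00649, 0.00327, 0.0219 and 0.00814). In TC32 the libraries were 203, 204 and 194 CPM under vehicle and 222, 235 and 235 under treatment, which do not overlap. That call was lost without vehicle replicate 3 (edgeR adjusted p = 0.0839) or treated replicate 2 or 3 (0.0671 and 0.0672). In A673 at 20 days the groups overlapped (0.09, edgeR adjusted p = 0.365). The CHLA10 20-day call was lost with only the 6 libraries of that comparison (0.24, edgeR adjusted p = 0.055).

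NTN4 encodes a secreted netrin-family protein of basement membranes (chr12:95657807-95791152, minus strand). In A673 at 20 days it stood at 28.6, 29.6 and 33.8 CPM under vehicle and 4.82, 4.19 and 5.84 under BMS-986158 (-2.63 ± 0.22, edgeR adjusted p = 4.11e-10). At 3 days in A673 it was 35.5, 40.5 and 22.2 against 13.5, 13.9 and 11.9 (-1.32 ± 0.21, edgeR adjusted p = 1.67e-05). The fall was deeper at 20 days than at 3 days in A673 by 1.31 on the log2 scale (-1.31 ± 0.29, edgeR adjusted p = 0.00614). In CHLA10 and TC32 its level was low, with 1.58, 1.78 and 2.80 against 0.636, 0.579 and 0.434 CPM in CHLA10 at 3 days and 0.949, 1.68 and 1.40 against 0.296, 0.393 and 0.320 in TC32. All 5 pairs of groups were apart, also in these lines (-1.89 ± 0.29 and -1.98 ± 0.34 at 3 days, -0.92 ± 0.23 in CHLA10 at 20 days).

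SEMA5B, a transmembrane semaphorin, was highest in CHLA10 and TC32 (chr3:122909082-123028605, minus strand). In TC32 it stood at 36.7, 39.0 and 37.0 CPM under vehicle and 8.50, 9.77 and 11.9 under BMS-986158 (-1.90 ± 0.35, edgeR adjusted p = 0.000102). In CHLA10 at 20 days it was 81.0, 73.6 and 72.7 against 12.5, 9.39 and 16.3 (-2.57 ± 0.35, edgeR adjusted p = 3.59e-06). At 3 days in CHLA10 the treated libraries were uneven, 13.7, 17.3 and 51.6 CPM against 62.3, 66.4 and 65.3. The change there was -1.23 ± 0.33 (edgeR adjusted p = 0.00622), -2.06 without treated replicate 3 (9.14e-07), and no call with only those 6 libraries (0.153). In A673 SEMA5B was at 2.59, 2.00 and 2.30 CPM under vehicle and 0.284, 0.319 and 0.283 under treatment at 3 days (-2.93 ± 0.57), and at 20 days the change of -1.17 was not called (edgeR adjusted p = 0.0919).

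**Figure D2:**
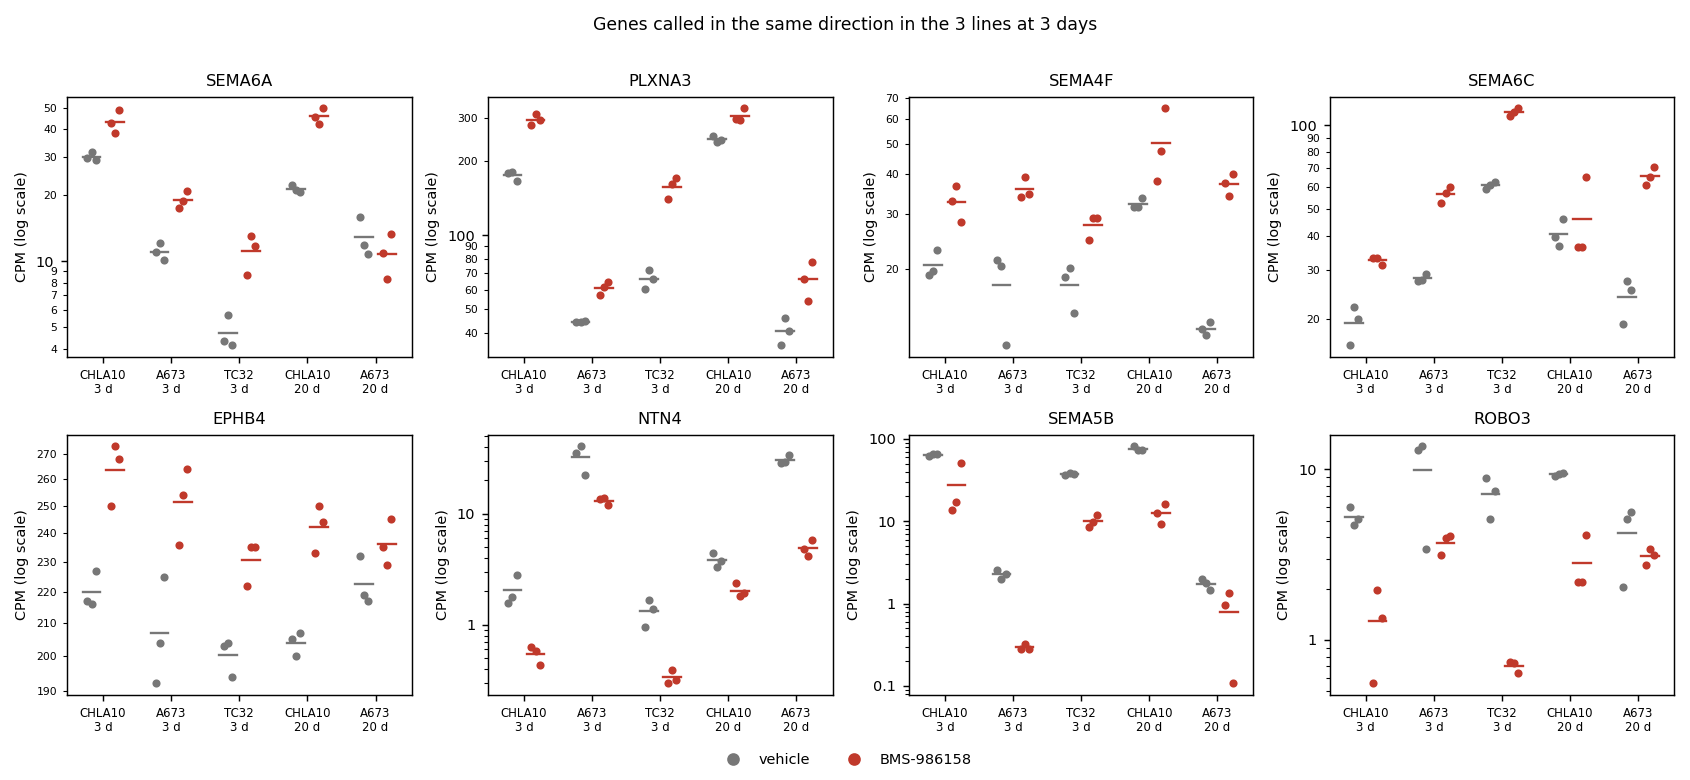
CPM on a log axis in each library of the 8 members called in the same direction in CHLA10, A673 and TC32 at 3 days, with vehicle libraries in grey, BMS-986158 libraries in red and bars at group means. PLXNA3, SEMA4F and NTN4 are apart in all 5 pairs of groups, and SEMA5B in CHLA10 at 3 days has 1 treated library at 51.6 CPM beside 13.7 and 17.3.

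The SLIT and ROBO genes split by member. Where called, ROBO1 was higher and ROBO3, ROBO2 and SLIT2 were lower. ROBO1, the main SLIT receptor of many tissues (chr3:78597240-79767815, minus strand), stood at 30.1, 35.0 and 32.9 CPM under vehicle and 83.2, 102 and 94.8 under BMS-986158 in TC32. In CHLA10 it was 59.1, 54.5 and 55.5 against 117, 123 and 114 at 3 days and 55.0, 52.7 and 51.0 against 110, 123 and 126 at 20 days. The changes were 1.51 in TC32 (edgeR adjusted p = 2e-12), 1.07 (7.36e-10) and 1.18 (6.48e-11) in CHLA10, each with an SE of 0.09. In A673 the libraries did not overlap either, but the changes were smaller, 0.21 at 3 days (edgeR adjusted p = 0.0582) and 0.32 at 20 days (0.00402). The A673 change at 3 days was below that of CHLA10 by 0.86 on the log2 scale (-0.86 ± 0.12, edgeR adjusted p = 5.5e-05), and TC32 exceeded A673 by 1.3 ± 0.12 (5.84e-08).

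ROBO3, a divergent ROBO known from commissural axons (chr11:124865386-124881470, plus strand), fell in the 3 lines at 3 days. In TC32 it went from 8.93, 5.08 and 7.46 CPM to 0.741, 0.736 and 0.640 (-3.33 ± 0.47, edgeR adjusted p = 2.47e-06), and in CHLA10 from 6.04, 4.69 and 5.13 to 0.556, 1.96 and 1.34 (-2.04 ± 0.43, 0.000704). In A673 the values of 12.9, 13.6 and 3.39 CPM under vehicle overlapped 3.13, 3.98 and 4.05 under treatment, and that call (-1.41 ± 0.39, edgeR adjusted p = 0.00687) was lost without vehicle replicate 2 (-1.10, 0.0552). At 20 days ROBO3 was called lower in CHLA10 (-1.72 ± 0.40, edgeR adjusted p = 0.00148) and not in A673 (-0.44 ± 0.41, 0.418). ROBO2 fell in A673, from 41.2, 40 and 38.1 CPM to 17.8, 19.0 and 18.4 at 3 days (-1.11) and from 47.3, 44.7 and 43.5 to 11.1, 8.58 and 15.5 at 20 days (-1.94). It was not called in TC32 or in CHLA10 at 3 days. Its CHLA10 20-day call (-0.68) was lost without treated replicate 1 (-0.44, edgeR adjusted p = 0.125) or 2 (-0.52, 0.113) or vehicle replicate 1 or 2 (0.085 and 0.0613). That call was also lost with no filter (0.0587) or only those 6 libraries (0.19). Without treated replicate 3 the change was -1.18 (edgeR adjusted p = 4.06e-06).

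SLIT2, a secreted ROBO ligand (chr4:20253260-20620561, plus strand), fell in CHLA10 and A673 and was not called in TC32. In A673 at 20 days it stood at 76.2, 77.2 and 72.1 CPM under vehicle and 32.8, 29.4 and 35.2 under BMS-986158 (-1.21 ± 0.17, edgeR adjusted p = 3.03e-06). Its changes at 3 days were -0.67 in CHLA10 (edgeR adjusted p = 0.0032), -0.76 in A673 (0.00096) and 0.12 ± 0.19 in TC32 (0.64). TC32 also held the least SLIT2, with 11.6, 10.8 and 10.8 CPM under vehicle against 156, 157 and 145 in CHLA10. The SLIT2 call in CHLA10 at 20 days was lost with only the 6 libraries of that comparison (-0.65, edgeR adjusted p = 0.0668). SLIT3 was below 1 CPM in A673 at 3 days, at 0.353, 0.624 and 0.603 CPM against 0.0568, 0.0398 and 0.0202 (37 counts against 3, a ratio of CPM of 16.8 with a 95% interval of 5.33 to 85.3 for counting error; edgeR adjusted p = 0.000138), and its CHLA10 20-day call (-1.06, 0.00993) was lost without vehicle replicate 3 (-0.65, 0.128).

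The netrin receptor UNC5A fell in A673 and CHLA10 at both times, and NTN1, the classic netrin, fell in CHLA10. UNC5A (chr5:176810477-176880898, plus strand) was highest in A673, at 31.3, 28.5 and 30.7 CPM under vehicle and 6.14, 9.12 and 6.66 under BMS-986158 at 3 days and 30.2, 31.8 and 28.7 against 2.01, 1.84 and 4.87 at 20 days. The changes were -2.04 ± 0.36 (edgeR adjusted p = 7.55e-05) and -3.37 ± 0.39 (1.21e-07), the latter -3.96 without treated replicate 3. In CHLA10 its vehicle level was 2.29, 2.17 and 3 CPM and the changes were -1.64 ± 0.45 at 3 days (edgeR adjusted p = 0.00655) and -1.75 ± 0.44 at 20 days (0.00315). With only the 6 libraries of the 20-day comparison UNC5A was not called there (-1.76, edgeR adjusted p = 0.0525). In TC32 it stayed below 0.5 CPM in every library. NTN1 fell in CHLA10 from 25.7, 23.5 and 24.7 CPM to 4.01, 5.39 and 10.1 at 3 days (-1.92 ± 0.29, edgeR adjusted p = 1.3e-05) and from 15, 10.9 and 8.14 to 4.47, 3.81 and 7.34 at 20 days (-1.13 ± 0.29, 0.00354). In A673 at 20 days NTN1 libraries were 36.6, 42.5 and 40 against 25.2, 22.2 and 25.4 CPM, apart by -0.71 ± 0.27 (edgeR adjusted p = 0.0381), a call that was lost without any single one of those 6 libraries (0.0518 to 0.114). DCC, NTN3, NTN5, UNC5B, UNC5C and UNC5D were called in none of the 5 comparisons when all 30 libraries were fitted without a replicate block. With other fits, DCC, NTN3 and UNC5B were called as given above, DCC in both directions with the replicate block.

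Among class 3 semaphorins, SEMA3A was called higher in CHLA10 and lower in A673 at 3 days. SEMA3A, a secreted repellent (chr7:83955777-84492724, minus strand), stood at 7.50, 7.70 and 7.73 CPM under vehicle and 18.6, 16.1 and 11.1 under BMS-986158 in CHLA10 at 3 days. In A673 at 3 days it was 63.1, 57.2 and 48.5 against 31.4, 30.1 and 31.0. Both pairs of groups were apart, in opposite directions (1.00 ± 0.25, edgeR adjusted p = 0.00333, and -0.87 ± 0.23, 0.00492), and the A673 change minus the CHLA10 change was -1.86 ± 0.34 (0.000914). At 20 days SEMA3A rose in CHLA10 from 7.51, 7.41 and 12.3 to 24.5, 27.8 and 47.6 CPM (1.88 ± 0.25, edgeR adjusted p = 1.55e-06), and in A673 it was at 46.4, 46.9 and 49.8 against 77.9, 74.2 and 44.7 (0.46, 0.115).

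SEMA3C, another secreted class 3 cue, fell in A673 at 3 days from 30.6, 26.6 and 10.3 CPM to 9.43, 7.01 and 6.32 (-1.58 ± 0.34, edgeR adjusted p = 0.001) and in CHLA10 at 20 days from 100, 107 and 60.4 to 21.7, 24.2 and 33.8 (-1.75 ± 0.32, 0.00019). It was not called in CHLA10 or TC32 at 3 days (-0.05 and -0.09) or in A673 at 20 days (0.06). SEMA3B rose in A673 at 20 days, from 0.931, 2.38 and 1.60 CPM to 8.63, 5.15 and 2.73 (1.75 ± 0.37, edgeR adjusted p = 0.000445). SEMA3G fell in TC32 from 3.29, 1.53 and 3.53 CPM to 0.148, 0.393 and 0.160 (-3.53 ± 0.66, edgeR adjusted p = 8.6e-05; -4.12 without treated replicate 2). SEMA3F was called lower in TC32, at 10.7, 10.8 and 9.85 against 3.66, 6.77 and 4.59 CPM (-1.06 ± 0.30, edgeR adjusted p = 0.00482), and higher in CHLA10 at 20 days, where the groups overlapped and the call (0.88 ± 0.27, 0.0126) was lost without treated replicate 3 (0.45, 0.19) or vehicle replicate 1 (0.81, 0.0562) or 2 (0.74, 0.0756).

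NRP1, the neuropilin that binds SEMA3A, fell in A673 at both times. It went from 31.3, 32.4 and 28.5 CPM to 13, 12.3 and 12.7 at 3 days (-1.28 ± 0.26, edgeR adjusted p = 0.000525) and from 33.9, 30.5 and 29.5 to 13.7, 16.6 and 15 at 20 days (-1.05 ± 0.26, 0.00227). Each treated group in A673 lay below its vehicle group. In CHLA10 the changes of -0.30 and -0.49 were not called, and in TC32, where NRP1 was at 0.837 to 1.97 CPM under vehicle, the groups overlapped and the call (-1.35 ± 0.49, edgeR adjusted p = 0.0265) was lost without vehicle replicate 2 (-0.89, 0.21) or treated replicate 2 (0.087) or 3 (0.118). NRP2 was called in no comparison.

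The plexins were called in both directions in each comparison except A673 at 20 days. In CHLA10 at 3 days PLXNA3 was called higher and PLXNA2, PLXNB1 and PLXND1 lower. In A673 at 3 days PLXNA3 and PLXNB2 were higher and PLXND1 lower. In TC32 PLXNA1, PLXNA3 and PLXNB2 were higher and PLXNA2 and PLXNB1 lower. In CHLA10 at 20 days PLXNA3 was higher and PLXNC1 lower. In A673 at 20 days 6 of 8 tested were higher and none lower, against 19.7% and 19.9% of all genes. That count was 4 without treated replicate 1 or 2 or with no filter, and 1 plexin was called lower with DESeq2, with RLE factors, with the replicate block or without treated replicate 3. Without the 4 most distant libraries 7 were called higher and 1 lower. PLXNC1, the receptor of SEMA7A (chr12:94148723-94307675, plus strand), went from 1.97, 2.50 and 1.70 CPM to 10.4, 11.8 and 7.71 there (2.26 ± 0.25, edgeR adjusted p = 7.58e-08). In CHLA10 at 20 days it went the other way, from 161, 146 and 225 CPM to 79.0, 55.3 and 115 (-1.10 ± 0.20, edgeR adjusted p = 0.000102). Both pairs of groups were apart, and the difference between the lines was 3.35 ± 0.32 (edgeR adjusted p = 3.76e-08). At 3 days PLXNC1 was called in no line.

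PLXNB2, a plexin B receptor of class 4 semaphorins, was among the most abundant members. It stood at 389, 412 and 390 CPM under vehicle and 611, 600 and 609 under BMS-986158 in TC32 (0.61, edgeR adjusted p = 4.03e-06), and at 475, 446 and 427 against 775, 793 and 635 in A673 at 20 days (0.71, 4.72e-07). In CHLA10 it was not called (-0.16 and -0.03). The TC32 change exceeded the CHLA10 change by 0.77 ± 0.13 (edgeR adjusted p = 0.000295). PLXND1, a receptor of SEMA3E, fell in CHLA10 at 3 days from 25.2, 30.5 and 28.9 CPM to 9.06, 9.80 and 16.8 (-1.25 ± 0.19, edgeR adjusted p = 2.03e-05) and was not called in TC32 (-0.01), a difference of 1.24 ± 0.27 (0.0035). PLXNA2 fell in TC32 from 6.81, 8.63 and 7.86 CPM to 0.445, 0.687 and 0.480 (-3.84 ± 0.66, edgeR adjusted p = 4.43e-05).

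SEMA6B fell further than any other called member in A673 at 20 days (chr19:4542593-4559808, minus strand). This transmembrane semaphorin stood at 122, 131 and 146 CPM under vehicle and 30.9, 39.4 and 34.7 under BMS-986158 at 3 days (-1.93 ± 0.22, edgeR adjusted p = 2.53e-07). At 20 days it was at 125, 160 and 154 against 4.98, 3.5 and 8.51 CPM (-4.68 ± 0.25, edgeR adjusted p = 4.67e-13). No library of one group came near the other at either time. CHLA10 and TC32 held little of it, at most 2.63 CPM in any library, and no call was made there. Other membrane semaphorins rose at 20 days, among them SEMA7A, a lipid-anchored semaphorin, in CHLA10 from 0.610, 0.378 and 0.341 CPM to 2.92, 2.18 and 13.3. That change was 3.76 ± 0.54 (edgeR adjusted p = 3.93e-06) and 2.50 without treated replicate 3 (3.07e-05).

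Among ephrin-A ligands, 3 of 5 were called higher in CHLA10 at each time, none lower at 3 days and 1 lower at 20 days. Of all genes, 14% were called higher and 15.7% lower there at 3 days, and 16.5% and 17.2% at 20 days. EFNA3 (chr1:155078872-155087538, plus strand) stood at 7.62, 8.15 and 8.03 CPM under vehicle and 35.0, 32.3 and 24.6 under BMS-986158 at 3 days, and at 15.3, 12.7 and 12.2 against 34.7, 33.9 and 26.4 at 20 days. The changes were 1.95 ± 0.23 (edgeR adjusted p = 3.93e-07) and 1.24 ± 0.23 (0.000106), and TC32 differed from CHLA10 at 3 days by -1.56 ± 0.34 (0.00318). Of its exonic bases 44.7% are shared with a same-strand gene, AL691442.1, as are 15% of those of EFNA4, so the counts of both are uncertain. EFNA5 rose in CHLA10 from 3.05, 2.6 and 5.41 to 13.2, 10.4 and 14.1 CPM at 20 days (1.78, edgeR adjusted p = 2.32e-06) and in A673 from 6.13, 6.46 and 4.75 to 11.8, 11.3 and 14 (1.09, 0.00049). EFNA4, EFNA3 and EFNA1 lie in a row on chromosome 1, with gaps of 9.32 and 39.9 kb. EFNA4 was called higher in CHLA10 at both times and in A673 at 3 days (0.60, 0.61 and 0.69).

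EFNB2, the ephrin-B ligand of EPHB4 (chr13:106489731-106535662, minus strand), rose in TC32 from 1.45, 2.27 and 2.33 CPM to 7.91, 9.72 and 8.96 (2.13 ± 0.34, edgeR adjusted p = 1.28e-05). In A673 at 3 days it rose from 4.12, 3.12 and 3.02 to 9.60, 13.9 and 14.2 CPM (1.89 ± 0.32, edgeR adjusted p = 4.82e-05), and in CHLA10 at 20 days from 6.15, 4.30 and 10.1 to 13.8, 15.8 and 30.1 (1.55 ± 0.31, 0.000274). The groups were apart in these 3 comparisons. It was not called in CHLA10 at 3 days (0.16) or in A673 at 20 days (0.28), and 26.2% of its exonic bases overlap an opposite-strand gene. EFNB1 (chrX:68828997-68842147, plus strand) was called lower in TC32, at 884, 1010 and 973 CPM under vehicle and 678, 759 and 791 under treatment (-0.36 ± 0.12, edgeR adjusted p = 0.0166), and higher in A673 at 20 days, at 275, 243 and 239 against 340, 380 and 283 (0.40 ± 0.12, 0.00908). In TC32 EFNB1 was no longer called without vehicle replicate 2 (edgeR adjusted p = 0.0634) or 3 (0.0501) or treated replicate 1 (0.0802), and in A673 without treated replicate 2 (0.30, 0.0805). EFNA2 fell in A673 at 3 days from 5.42, 6.99 and 4.98 CPM to 1.31, 1.87 and 1.80 (-1.79).

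The EPHA receptors EPHA3 and EPHA4 rose in several comparisons, while EPHA1 and EPHA8 fell in A673. EPHA4 stood at 138, 154 and 153 CPM under vehicle and 273, 388 and 391 under BMS-986158 in TC32 (1.24 ± 0.12, edgeR adjusted p = 1.15e-08). It was 73.8, 68.0 and 64.7 against 99.7, 94.1 and 97.4 in CHLA10 at 3 days (0.50, edgeR adjusted p = 0.00296) and 56.5, 46.6 and 51.3 against 80.8, 94.7 and 91.4 in A673 at 20 days (0.79, 1.08e-05). At 3 days in A673 EPHA4 was not called (0.12), and the TC32 change exceeded it by 1.12 ± 0.17 (edgeR adjusted p = 6.31e-05). EPHA3 rose in TC32 from 8.71, 12.6 and 8.79 to 22.2, 30.9 and 26.2 CPM (1.39 ± 0.20, edgeR adjusted p = 4.15e-06). Other calls of these genes were lost when any 1 of several libraries was left out. EPHA3 in CHLA10 at 3 days (0.53, edgeR adjusted p = 0.0278) lost its call without treated replicate 3 (0.36, 0.164) or without any 1 vehicle library (0.0605 to 0.079). At 20 days its CHLA10 call (0.56, edgeR adjusted p = 0.0174) was lost without treated replicate 3 (0.34, 0.169), vehicle replicate 3 (0.43, 0.0954) or the 4 most distant libraries (0.22, 0.366). In A673 at 20 days EPHA3 (0.59, edgeR adjusted p = 0.012) lost it without treated replicate 3 (0.0691) or vehicle replicate 2 or 3 (0.0639 and 0.0604). EPHA4 in CHLA10 at 20 days (0.34, edgeR adjusted p = 0.0321) lost it without vehicle replicate 3 (0.20, 0.222), treated replicate 1 or 2 (0.0686 and 0.11) or the 4 most distant libraries (0.26, 0.0835). EPHA5 rose in CHLA10 at 20 days from 12.5, 11.5 and 15.2 to 25.2, 29.8 and 39.9 CPM (1.28, edgeR adjusted p = 0.000242).

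EPHA1 fell in A673 from 10.4, 10.9 and 3.39 CPM to 1.19, 1.39 and 1.82 at 3 days (-2.45 ± 0.45, edgeR adjusted p = 0.00014) and from 3.40, 3.56 and 5.09 to 0.900, 0.572 and 1.02 at 20 days (-2.25, 0.000486). EPHA8 fell there from 3.83, 3.12 and 1.96 to 0.966, 0.638 and 0.344 CPM at 3 days (-2.25 ± 0.53, edgeR adjusted p = 0.00263), and at 20 days by -2.68 ± 0.57 (0.000778; -3.42 without treated replicate 3). EPHA2, an Eph receptor common in epithelial and tumour cells, was called in CHLA10 at 3 days alone when all 30 libraries were fitted. It stood at 44.8, 50.4 and 48.9 CPM under vehicle and 4.61, 5.84 and 21.9 under treatment (-2.16 ± 0.53, edgeR adjusted p = 0.00363), at -3.20 without treated replicate 3 (0.000211), and was not called with only those 6 libraries (0.0526). EPHA2 in A673 at 20 days was at 188, 145 and 139 CPM under vehicle and 337, 381 and 134 under treatment (0.85, not called). Without the 4 most distant libraries EPHA2 was called higher there (1.18, edgeR adjusted p = 0.00822) and lower in CHLA10 at 20 days (-1.54, 0.0135) and in TC32 (-1.04, 0.0159). The TC32 change was also called with only its 6 libraries (-1.03, edgeR adjusted p = 0.000352), and the CHLA10 20-day change without treated replicate 3 (-1.65, 0.0126).

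EPHB2 (chr1:22710839-22921500, plus strand) went in opposite directions in CHLA10 and A673 at both times. In CHLA10 it was 24.4, 26.7 and 25.2 CPM under vehicle and 38.4, 41.0 and 41.2 under BMS-986158 at 3 days, and 36.0, 31.4 and 39.4 against 67.6, 63.1 and 83.1 at 20 days. In A673 it was 29.2, 28.0 and 34.3 against 23.6, 19.8 and 20.4 at 3 days, and 23.5, 29.5 and 28.0 against 11.2, 12.4 and 19.5 at 20 days. All 4 pairs of groups were apart. The changes in CHLA10 were 0.66 and 1.00 and those in A673 -0.52 and -0.91 (SE 0.15; edgeR adjusted p = 0.00121, 5.94e-06, 0.00754 and 2.63e-05). The lines differed by -1.18 ± 0.21 at 3 days (edgeR adjusted p = 0.000611) and by -1.91 ± 0.21 at 20 days (2.89e-07). EPHB1 rose in A673 at 3 days from 15.8, 9.94 and 8.56 to 35.1, 33.5 and 33.2 CPM (1.58 ± 0.32, edgeR adjusted p = 0.000355), and its 20-day call (1.01, 0.0116) was lost without treated replicate 3 (0.52, 0.178) or vehicle replicate 2 or 3 (0.90, 0.0576 each).

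Opposite calls in some pair of the 5 comparisons were made for 9 members, EFNB1, EPHA5, EPHB2, PLXNA2, PLXNC1, PLXND1, SEMA3A, SEMA3F and SEMA5A, where 10.1% of all genes tested had such calls. Among the 3 lines at 3 days they were made for SEMA3A and EPHB2 (3.31% of all genes). Without the 4 most distant libraries the counts were 13 and 4, and with no filter the count over the 5 comparisons was 6. Several of these calls were lost with 1 library left out. PLXND1 in A673 at 3 days (-0.48 ± 0.18, edgeR adjusted p = 0.0462) lost its call without treated replicate 1, 2 or 3 or vehicle replicate 2 or 3 (0.0641 to 0.146), and its 20-day call (0.54 ± 0.18, 0.019) without treated replicate 1 or 2 or vehicle replicate 1 (0.0772 to 0.141). PLXNA2 in CHLA10 at 3 days (-1.91, edgeR adjusted p = 0.0357) lost it without treated replicate 1 or 2 or vehicle replicate 2 or 3 (0.0825 to 0.138), and in A673 at 20 days (1.60, 0.0177) without treated replicate 1 or 2 or vehicle replicate 2 or 3 (0.0605 to 0.0841). EPHA5 in TC32 (-1.21, edgeR adjusted p = 0.0313) lost it without vehicle replicate 1 or treated replicate 1 or 2 (0.131 to 0.166) and stood at -2.10 without treated replicate 3. In TC32 SEMA5A, at most 0.74 CPM in any library, lost the call (-2.02, edgeR adjusted p = 0.0391) without vehicle replicate 2 or 3 or treated replicate 1 or 2 (0.0507 to 0.165). In CHLA10 at 20 days (1.61, edgeR adjusted p = 0.0304) SEMA5A lost it without any library but vehicle replicate 3 (0.0558 to 0.15).

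**Figure D3:**
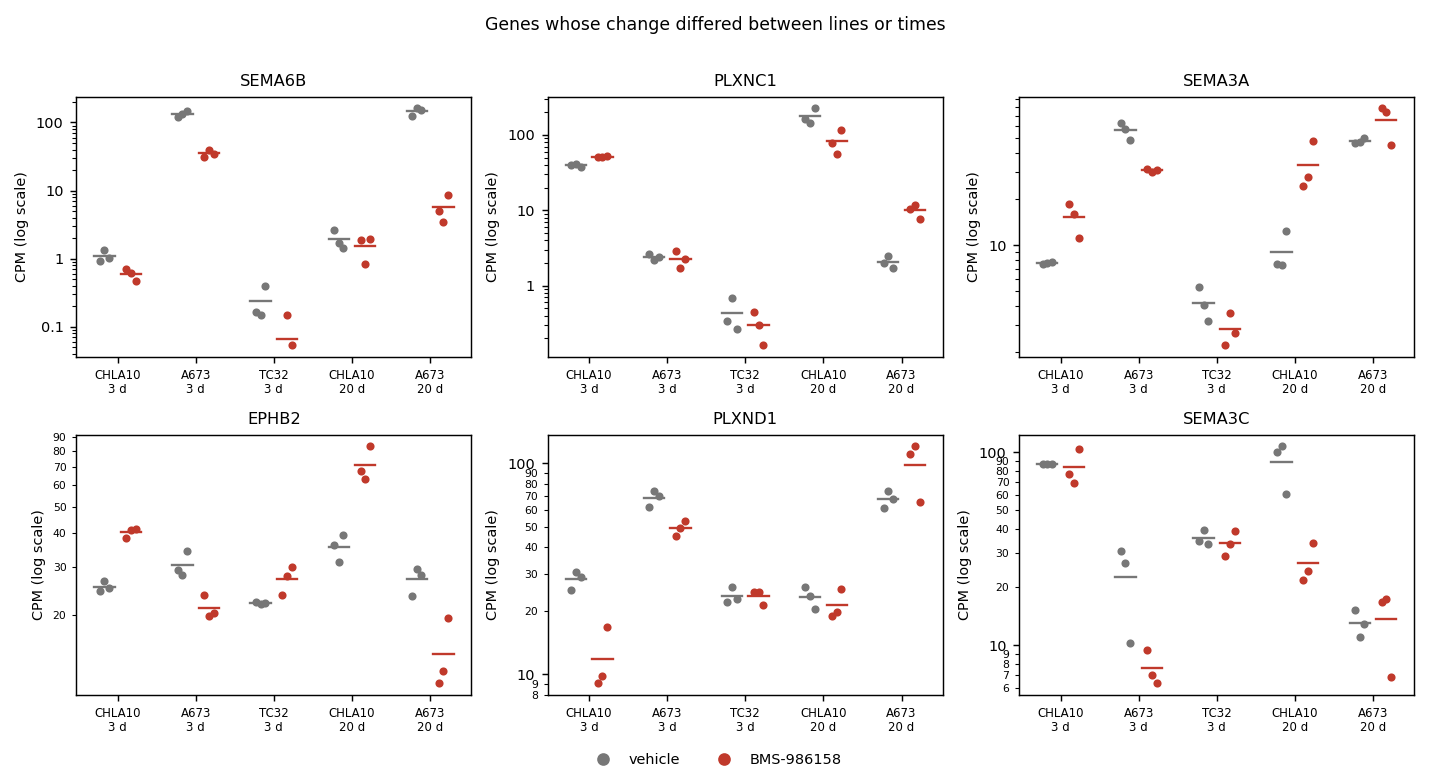
CPM on a log axis in each library of SEMA6B, PLXNC1, SEMA3A, EPHB2, PLXND1 and SEMA3C, with vehicle in grey, BMS-986158 in red and bars at group means over the 5 line and day pairs. SEMA6B in A673 drops to 3.5 to 8.51 CPM at 20 days, and EPHB2 lies higher under treatment in CHLA10 and lower in A673.

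Differences of effects between lines were called for 13 of 65 members for A673 against CHLA10 at 3 days (10.5% of all genes), 14 for TC32 against CHLA10 (13.8%) and 16 for TC32 against A673 (24.2%). At 20 days 23 members differed between A673 and CHLA10 (21.9% of all genes). The steepest of these was SEMA6B, with an A673 change minus CHLA10 change of -4.35 ± 0.40 (edgeR adjusted p = 2.63e-08). The first count was 6 or 7 without A673 treated replicate 2 or 3, A673 vehicle replicate 1 or 2, CHLA10 treated replicate 1 or 2 or any CHLA10 vehicle library. The second was 8 or 9 without TC32 treated replicate 2 or 3 or vehicle replicate 1 or 3, and the third was 10 without A673 vehicle replicate 1 and 9 without TC32 treated replicate 3.

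The response at 20 days was compared with that at 3 days within CHLA10 and A673. In CHLA10 it differed for 5 of 65 members (6.32% of all genes): PLXND1 (1.13 ± 0.27), PLXNA2 (2.92), EFNB2 (1.38 ± 0.43), SEMA3C (-1.69 ± 0.44) and PLXNC1 (-1.48 ± 0.28; edgeR adjusted p = 0.00322). The PLXNC1 libraries show 2 moves there, since the vehicle libraries themselves were at 39.7, 40.8 and 37.9 CPM at 3 days and 161, 146 and 225 at 20 days. The SEMA3C call (edgeR adjusted p = 0.0261) was lost under 8 omissions of 1 library (0.0525 to 0.0885), the PLXND1 call (0.0152) without the 3-day treated replicate 1 (0.96, 0.0589), and the PLXNA2 call (0.0479) without the 20-day treated replicate 3 (1.43, 0.255). In A673 it differed for 13 members (7.26% of all genes). SEMA6B and NTN4 went further down (-2.75 and -1.31), PLXNC1 and SEMA3B up (2.33 ± 0.37, edgeR adjusted p = 0.000401, and 2.52 ± 0.52, 0.00301). EFNB2, higher at 3 days, was lower in its 20-day change by 1.61 on the log2 scale (-1.61, edgeR adjusted p = 0.0246), and SEMA3A turned from a fall at 3 days to no call at 20 days (1.33, 0.0122). The CHLA10 count was 2 without 20-day vehicle replicate 1 or 2, 3-day treated replicate 1 or any 3-day vehicle library, 3 without 3-day treated replicate 2, 8 without 20-day vehicle replicate 3 and 9 without 3-day treated replicate 3. The A673 count was 7 or 8 without 20-day treated replicate 1 or 2 or 3-day treated replicate 2.

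**Figure D4:**
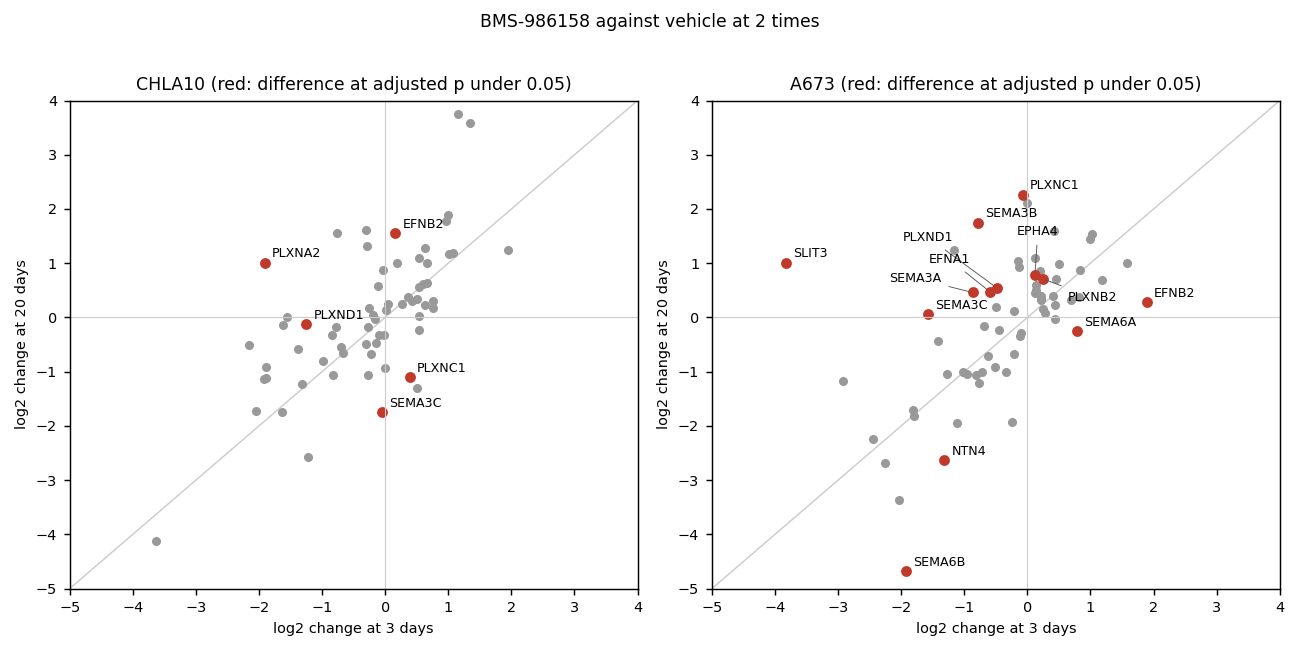
Log2 change of BMS-986158 minus vehicle at 3 days (horizontal axis) and at 20 days (vertical axis) for each member tested, in CHLA10 and in A673, with red points where the difference of the changes was called at an adjusted p under 0.05 (edgeR). CHLA10 has 5 red points and A673 has 13, with SEMA6B lowest at -4.68 in A673.

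Per exonic kilobase, averaged over all 30 libraries with treated and vehicle groups of the lines together, the most abundant member of each family was EFNB1 (143 CPM per kb) among ephrin-B ligands, PLXNB2 (65.1) among plexins, EPHB4 (35.4) and EPHA2 (22.5) among Eph receptors and EFNA4 (16.2) among ephrin-A ligands. UNC5B (12.2), SEMA4C (11.1), SLIT2 (7.16), ROBO1 (7.05), SEMA3C (6.57), NTN1 (2.84) and NRP1 (2.13) led the other families in that average. In the mean of the 9 vehicle libraries at 3 days the same gene led each family, with SEMA6B (10.2 CPM per kb) close behind SEMA4C (11.1). Within a line the order often differed. Per kb under vehicle at 3 days, EPHA3 stood above EPHA2 and ROBO2 above ROBO1 in CHLA10. In A673 DCC stood above UNC5B, SEMA3D above SEMA3C and SEMA6B above SEMA4C, and in TC32 EPHA4 above EPHA2. EPHB4 and PLXNB2 were called between no pair of lines under vehicle. Most other members were: 48 of 65 differed between A673 and CHLA10 at 3 days (61.2% of all genes), 40 between TC32 and CHLA10 (61.1%) and 52 between TC32 and A673 (66.6%). In A673 28 members were higher and 20 lower than in CHLA10 (31.5% and 29.7% of all genes). In TC32 28 members were lower and 12 higher than in CHLA10 (30.1% and 31%), and 37 were lower and 15 higher than in A673 (34.3% and 32.3%).

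SEMA6B was at 122, 131 and 146 CPM in A673 vehicle libraries, 121-fold above CHLA10 (0.938, 1.33 and 1.02) and 559-fold above TC32 (0.167, 0.148 and 0.399). The TC32 ratio rests on 3, 3 and 6 counts there, so it is imprecise. EPHA8 had 192 counts over the 3 A673 vehicle libraries and 3 over those of CHLA10, a ratio of CPM of 54.0 (95% Clopper-Pearson interval 18.2 to 264, counting error only). The fitted difference of 5.67 was 6.52 without CHLA10 vehicle replicate 3. It was at 0 counts in the TC32 vehicle libraries, at least 52.7-fold lower than in A673, with 3 counts summed over the group's libraries taken as the floor. SEMA5B was 28.1-fold lower in A673 than in CHLA10 (-4.82 ± 0.40) and 16.4-fold higher in TC32 than in A673. Each of these 3 genes thus stood far higher in 1 or 2 of the lines than in the rest. EPHA8 was low even in A673, at 3.83, 3.12 and 1.96 CPM.

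UNC5C and UNC5D were at 0 counts in TC32 vehicle libraries, at least 77.0-fold and 83.2-fold lower than in A673 against the same floor. SLIT3 had 2 counts in TC32 and 460 in CHLA10 vehicle libraries, a ratio of CPM of 215 (59.1 to 1780). Both TC32 counts came from vehicle replicate 3, and the fitted difference of -7.53 was -10.5 without that library and -6.92 without vehicle replicate 2. NTN1 was 115-fold lower in TC32 than in A673 (-6.72, and -7.41 without TC32 vehicle replicate 2), UNC5A 110-fold (-6.72, and -7.32 without it), and NRP1 was 29.4-fold lower in TC32 than in CHLA10. In the TC32 vehicle libraries NTN1 had 8, 13 and 0 counts and UNC5A 2, 9 and 4, so the folds of both are imprecise. EFNA5 and SEMA7A were higher in TC32, 6.59-fold (2.72 ± 0.25, edgeR adjusted p = 3.35e-10) and 10.5-fold (3.35 ± 0.61) above CHLA10, the latter 4.50 on the log2 scale without CHLA10 vehicle replicate 3. SEMA5A was at 0 counts in A673 vehicle libraries at 3 days, at least 4.03-fold below CHLA10.

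**Figure D5:**
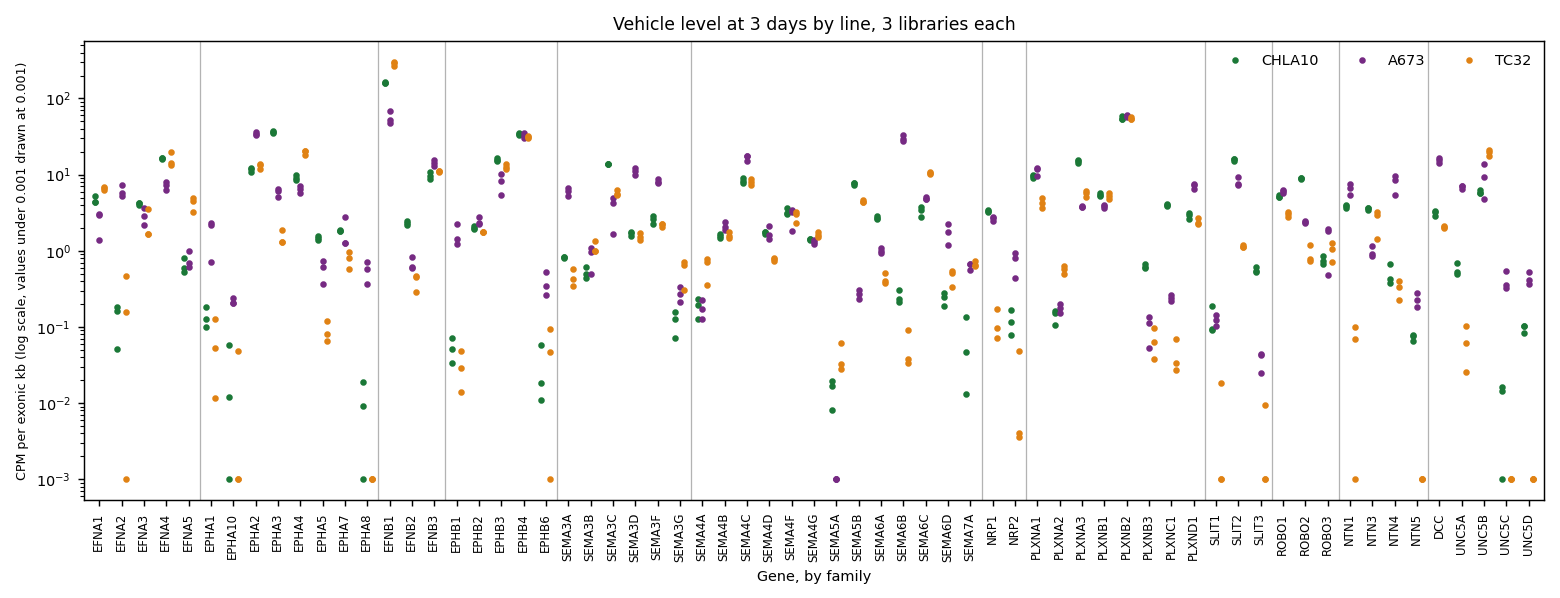
CPM per exonic kilobase (vertical log axis, values at or near 0 drawn on the lowest line) of each member tested (horizontal axis, by family) in the 3-day vehicle libraries, with CHLA10 in green, A673 in purple and TC32 in orange, 3 points each. The points of PLXNB2 and EPHB4 lie together in the 3 lines, while those of SEMA6B in A673 lie far above the other lines and UNC5C, UNC5D and EPHA8 of TC32 lie at 0.

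Vehicle levels also differed between days. In CHLA10 15 of 65 members were called, 13 higher and 2 lower at 20 days (15.1% of all genes, 8.05% higher and 7.06% lower). PLXNC1 was 4.49-fold higher (177 ± 42.0 against 39.5 ± 1.46 CPM, mean ± SD, n = 3; 2.17 ± 0.21, edgeR adjusted p = 5.23e-07), and SEMA6C, SEMA4F and PLXNA3, 3 of the genes that rose under BMS-986158 at 3 days, were higher too (40.7 against 19.4, 32.2 against 20.6 and 246 against 176 CPM). NTN1 was lower (-1.11, edgeR adjusted p = 0.0079), as was SEMA6A (-0.49, 0.0377). The count was 6 to 9 without 20-day vehicle replicate 1 or any 3-day vehicle library. In A673 5 members were called, EFNB1 higher and SEMA3B, EFNA1, SLIT3 and SEMA4B lower (6.1% of all genes, 3.02% higher and 3.08% lower), a count that fell to 0 without 20-day vehicle replicate 1 or 3-day vehicle replicate 1 or 2, where 8, 7 and 7 members had an unadjusted p under 0.05 in edgeR and DESeq2 with all libraries called 7. It was 3 without 20-day and 13 without 3-day vehicle replicate 3.

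Genes that pass the guidance signal on were followed as 2 lists of other genes. Of 20 co-receptors and further cues tested, 4 were called higher and 2 lower in CHLA10, 3 and 5 in A673 and 6 and 5 in TC32 at 3 days, then 6 and 3 in CHLA10 and 8 and 7 in A673 at 20 days. These make 30%, 40%, 55%, 45% and 75% of the list, where 29.8%, 33.7%, 45.1%, 33.7% and 39.7% of all genes were called. L1CAM, an adhesion partner of NRP1, rose in A673 at 20 days from a mean of 8.91 to 218 CPM (4.61 ± 0.58), and NRCAM rose in CHLA10 at 20 days from 7.32 to 38.9 CPM (2.42 ± 0.51). FLRT1 fell in A673 at 3 days from 12 to 1.07 CPM (-3.46 ± 0.56). Of 55 intracellular mediators 13 were called higher and 11 lower in CHLA10, 9 and 8 in A673 and 20 and 12 in TC32 at 3 days, then 16 and 9 in CHLA10 and 19 and 11 in A673 at 20 days. In the same order these make 43.6%, 30.9%, 58.2%, 45.5% and 54.5% of the list, beside the same shares of all genes. TIAM1, a Rac exchange factor that binds ephrin and Eph proteins, rose in CHLA10 from 0.468 to 3.44 CPM at 3 days (2.85 ± 0.30) and from 0.452 to 17 CPM at 20 days (5.18 ± 0.29, edgeR adjusted p = 4.19e-13). SRGAP1, a GTPase-activating protein that binds ROBO1, rose in CHLA10 at 3 days from 4.70 to 24.5 CPM (2.38 ± 0.22), and MICAL2, of the family that works downstream of plexins, rose in A673 at 20 days from 2.43 to 46.5 CPM (4.26 ± 0.50). At 3 days the median changes of the mediators were -0.04 (CHLA10), 0.06 (A673) and -0.02 (TC32), and at 20 days 0.15 (CHLA10) and 0.28 (A673).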

How the data were processed

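Poly(A) RNA of 30 libraries was read from 1 deposited table of whole-number read counts per Ensembl gene (33538 genes, 30 columns), which the authors had not normalized. The submitters' processing notes name FastQC, Trim Galore, STAR, DESeq2 and the build GRCh38. Which versions, counting tool, strand setting and annotation were used is not given in the sources used here, so genes that overlap on either strand are uncertain. Of the 69 members 26 share exonic bases with another gene, 6 of them over 10% (EFNA3, EFNA4, SEMA4G, EFNB2, PLXNB3 and ROBO4). Coordinates and exonic lengths come from GENCODE 29 and promoters from RefSeq.

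Groups and replicate numbers follow the sample titles, and all labels give batch 1. Every 2 replicates differed by more than sampling of counts gives (chi-square per gene at least 2.161), so each was 1 replicate. Genes were filtered with filterByExpr by group (16713 tested), scaled by TMM, and fitted in edgeR 4.0.16 (R 4.3.3) as 1 robust quasi-likelihood model with a mean for each of the 10 groups, so that they share the spread. All 16 contrasts used glmQLFTest with Benjamini-Hochberg adjustment over all genes tested and a threshold of 0.05. The fit was tested on simulated counts. For a group at 0 a floor of 3 counts summed over its libraries was used. Such floors, and the 95% intervals of ratios, reflect counting error alone. Tables and figures used Python 3.11.15, pandas 2.3.3, numpy 2.4.6 and matplotlib 3.10.9.

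The members and lists were chosen with earlier results of these data known. Members named with values are those called alike in the 3 lines, the 4 highest and 4 lowest called in each treatment comparison (groups apart, mean of at least 1 CPM), those called in opposite directions, up to 3 of each difference of effects, the 2 highest and 2 lowest of each vehicle comparison between lines, and the most abundant of each family. Others named (ROBO2, and the pairs of neighbouring or low genes given for context) were chosen after their values were seen. Alternatives were DESeq2 1.42.0, RLE factors, no filter, only the 6 libraries of a comparison, a replicate block and each library left out. Same-numbered libraries deviated together only in CHLA10 at 20 days (correlations 0.20, 0.15 and 0.36).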

Additional observations from a re-analysis of the deposited data

Results flagged for a closer look

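The effects of BMS-986158 differed between lines or times, in edgeR's quasi-likelihood test of the difference itself, for the following members, given as log2 differences of the changes. For 20 against 3 days in CHLA10 they were PLXNC1 (-1.48), PLXND1 (1.13) and SEMA3C (-1.69), and in A673 SEMA6B (-2.75), PLXNC1 (2.33) and SEMA3B (2.52). For A673 against CHLA10 at 3 days they were ROBO1 (-0.86), EPHB2 (-1.18) and SEMA3A (-1.86). TC32 differed from CHLA10 at 3 days in PLXNB2 (0.77), EFNA3 (-1.56) and PLXND1 (1.24), and from A673 in ROBO1 (1.3), EPHA4 (1.12) and PLXNA3 (0.79). At 20 days A673 differed from CHLA10 in SEMA6B (-4.35), PLXNC1 (3.35) and EPHB2 (-1.91).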

How the results depend on the processing

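Of 245 tested effects of the named members 149 were called. No direction reversed among these 149 called effects under any alternative run, 116 calls were kept under every alternative, and 33 were lost under at least 1. The counts of members called in the 5 treatment comparisons stayed within 1.5 times of the count with all libraries under every alternative. Without single libraries they ran from 24 to 28 in CHLA10, 25 to 32 in A673 and 22 to 26 in TC32 at 3 days, and from 27 to 32 in CHLA10 and 27 to 33 in A673 at 20 days. With the replicate block they were 33, 31, 28, 35 and 38, and the block removed none of the named calls and added 8. Replicate numbers pair the libraries only in CHLA10 at 20 days. In the other sets they share a number, with correlations of same-numbered deviations from -0.16 to 0.16.

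Counts for the differences of effects moved more. For 20 against 3 days in CHLA10 (5 members) DESeq2 gave 11, no filter 3 and single omissions 2 to 9, and in A673 (13 members) single omissions gave 7 to 18. For A673 against CHLA10 at 3 days (13) no filter gave 8 and single omissions 6 to 16. Single omissions gave 8 to 16 for TC32 against CHLA10 (14), 9 to 17 for TC32 against A673 (16) and 19 to 30 for A673 against CHLA10 at 20 days (23). For 20-day against 3-day vehicle they gave 6 to 12 in CHLA10 (15) and 0 to 13 in A673 (5; DESeq2 7, and 7 or 8 members at an unadjusted p under 0.05 in the edgeR fits with 0). For the lines under vehicle they gave 42 to 49, 35 to 40 and 50 to 53.

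Leaving out the 4 most distant libraries, and single omissions for differences and vehicle comparisons, were chosen after seeing the data. Without those 4, the differences counted 14 (20 against 3 days in CHLA10), 30 (the same in A673), 23 and 36 (A673 against CHLA10 at 3 and 20 days), and the A673 vehicle days 17. The treatment comparisons then counted 36, 38, 38, 35 and 43, ROBO1 joined the members higher in the 3 lines and in all 5 comparisons, and SEMA3D those lower. The cause was not tested. Members under 1 CPM are limited by depth.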

Other observations

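Several members are neighbours in the genome, and neighbours did not all move together. ROBO3 and ROBO4 lie 2.22 kb apart on chromosome 11, and ROBO4 did not pass the filter while ROBO3 was called in 4 of 5 comparisons. EPHA8 and EPHB2 lie 107 kb apart on chromosome 1. In A673 both were called lower at both times, and in CHLA10 EPHB2 was called higher. SEMA3F and SEMA3B lie 78.5 kb apart on chromosome 3, and SEMA3B was called higher in A673 at 20 days, where SEMA3F was not called.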
